A study of Mus musculus with 8 samples.

Results

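The 10 genes described here mark pancreatic stellate cells and the matrix that they lay down: Col1a1, Col1a2, Col3a1, Fn1, Sparc, Dcn, Lum, Pdgfrb, Vim and Acta2. They were taken by gene symbol from a table of 54427 genes, and all 10 were found. They were measured by RNA sequencing of primary acinar cells of wild-type mouse pancreas, injured for 6 h with cholecystokinin octapeptide (CCK) at 1 µM. CCK is the gut hormone that makes acinar cells release digestive enzymes, and in excess it damages them. All 8 libraries share this injury. The titles name 4 of them AP and 4 AP_OCA, and the second name was read as added OCA. OCA commonly stands for obeticholic acid, which activates FXR, a nuclear receptor for bile acids. The protocol text gives 2.5 µM OCA and is identical for all 8 libraries, so the reading that AP received none rests on the titles. The age and number of the mice are not given in the sources used here, nor whether replicates came from separate animals or preparations. Every p-value therefore measures the spread between these samples, which may be technical.

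Stellate cells are the resident fibroblast-like cells of the pancreas. At rest they store retinoids and sit around the acini; after injury they become myofibroblasts that express smooth muscle actin and secrete fibrillar collagen, fibronectin and proteoglycans, and this response underlies pancreatic fibrosis. An acinar cell preparation can hold such cells as a minor component. In bulk samples, fewer cells of a type and less RNA per cell cannot be told apart.

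The preparations were acinar by their most abundant markers. The summed level of 11 acinar genes, including Ctrb1 and Pnlip, was at least 338300 CPM in every library. CPM here is a value scaled so that each library sums to 1000000. The deposited values had been made alike in distribution across libraries, so CPM values here rank genes on a common scale and give no fraction of the reads. AP_OCA replicate 2 stood apart from the other 7 libraries. Its 11 lymphocyte markers summed to 3750 CPM against 4.15 to 43.7 CPM elsewhere, and its 8 islet markers to 8.96 CPM against 508 to 2153 CPM. Less abundant acinar markers were low there too. Ptf1a stood at 1.12 CPM against at least 17.4 CPM elsewhere, and Bhlha15 at 5.05 CPM against at least 63.1 CPM (both named after their values were seen). The acinar sum therefore does not show that this library was as acinar as the rest. It is shown apart below: the fits described are those over the other 7 libraries unless all 8 are named. All 10 genes were above 0 in all 8 libraries and passed the filter of a mean of at least 1 CPM. Read depth is unknown, but the distinct values of a library can be counted upwards from 0, and if each stands for at least 1 more read they give a lower limit on the count. By that measure Lum, the least abundant, rested on at least 21 to 56 reads in the 7 libraries, and Col1a1 on at least 47 to 489.

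The 3 collagens have a sequence feature that the other 7 genes lack. A collagen triple helix needs a glycine in every triplet of residues, and glycine codons begin with GG. The longest unbroken run of codon triplets opened by such a codon held 338 triplets in Col1a1, 339 in Col1a2 and 344 in Col3a1, and at most 2 in the other 7 coding sequences. The first 54 bases of each run are shown 5′ to 3′ from the GENCODE M21 transcripts (GRCm38, the mm10 build), with the glycine codon that opens each triplet in capitals; further glycine codons inside a triplet, as in Col3a1, are in lower case. They start at coding base 502 of Col1a1 (chr11:94939451-94939741, plus strand), 289 of Col1a2 (chr6:4512406-4515254, plus strand) and 490 of Col3a1 (chr1:45323762-45325377, plus strand), and each genomic interval includes introns.
Col1a1: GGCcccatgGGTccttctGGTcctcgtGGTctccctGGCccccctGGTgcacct
Col1a2: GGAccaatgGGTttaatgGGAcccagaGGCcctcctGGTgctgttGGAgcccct
Col3a1: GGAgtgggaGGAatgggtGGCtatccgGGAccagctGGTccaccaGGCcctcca
The GC content of the whole run was 65.2% in Col1a1, 62.0% in Col1a2 and 60.9% in Col3a1. Over the whole coding sequence it was 63.0%, 59.5% and 56.9%. In the other 7 genes it ran from 44.5% (Lum) to 56.9% (Sparc). Whether the repeat has a part in the changes below was not tested.

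Decorin (Dcn) and lumican (Lum) stand at the other end of GC content. Both are small leucine-rich proteoglycans that bind collagen fibrils, and leucine codons made up 49 of 354 codons in Dcn and 56 of 338 in Lum. Coding bases 301 to 354 are shown for comparison, with the leucine codons in capitals (Dcn chr10:97495106-97506537 with introns, Lum chr10:97568545-97568598, both plus strand).
Dcn: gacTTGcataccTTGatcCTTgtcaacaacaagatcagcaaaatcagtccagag
Lum: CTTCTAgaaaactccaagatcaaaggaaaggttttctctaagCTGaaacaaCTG
Over the longest transcript of each gene, GC content was 37.4% in Dcn and 41.9% in Lum, against 58.9% in Col1a1, 55.7% in Col1a2 and a median of 50.2% over the genes tested.

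In the GRCm38 annotation Col1a1 lies at chr11:94936224-94953042, Col1a2 at chr6:4504814-4541544, Col3a1 at chr1:45311538-45349706, Dcn at chr10:97479609-97518143, Lum at chr10:97565128-97572703 and Vim at chr2:13573927-13582826, all on the plus strand. Fn1 (chr1:71585520-71653200), Sparc (chr11:55394500-55423183) and Acta2 (chr19:34241090-34255590) lie on the minus strand. All 10 are protein-coding, and the values are of whole genes.

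The question put to the data was whether these genes differed when OCA was added to injured cells. Without AP_OCA replicate 2, fibronectin (Fn1) and the collagen I chain Col1a1 fell in AP_OCA, to about 7.43 ± 4.08 and 11.8 ± 6.15 CPM (SD, n = 3) from 23.6 ± 8.99 and 29.2 ± 4.42 CPM in AP (SD, n = 4). The other 8 genes did not pass. Of the 10 genes, 5 had all 3 AP_OCA libraries below all 4 AP libraries: Col1a1, Col1a2, Col3a1, Fn1 and Pdgfrb. Such a separation downwards was found in 12.1% of the 10894 genes tested, and passing in either direction in 2.44%. At an unadjusted p under 0.05 there were 5 of the 10, the same 5, beside 25.7% of all genes in either direction and 13.9% lower. Of the 10 log2 fold changes 8 were negative, against 50% of all genes. The median log2 fold change of the 10 genes was -0.52, beside 0.00 over all genes tested. With all 8 libraries, 0 of the 10 passed the limma test, as did 0% of 11311 genes. At an unadjusted p under 0.05 there were then 2 of the 10, Col1a1 and Pdgfrb, both lower in AP_OCA, beside 16.2% of all genes in either direction and 8.87% lower. Over the 8 libraries 5 of the 10 log2 fold changes were negative, as were 50.9% of all, and none of the 10 had AP_OCA wholly above AP, as 6.75% of all genes had.

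**Figure D1:**
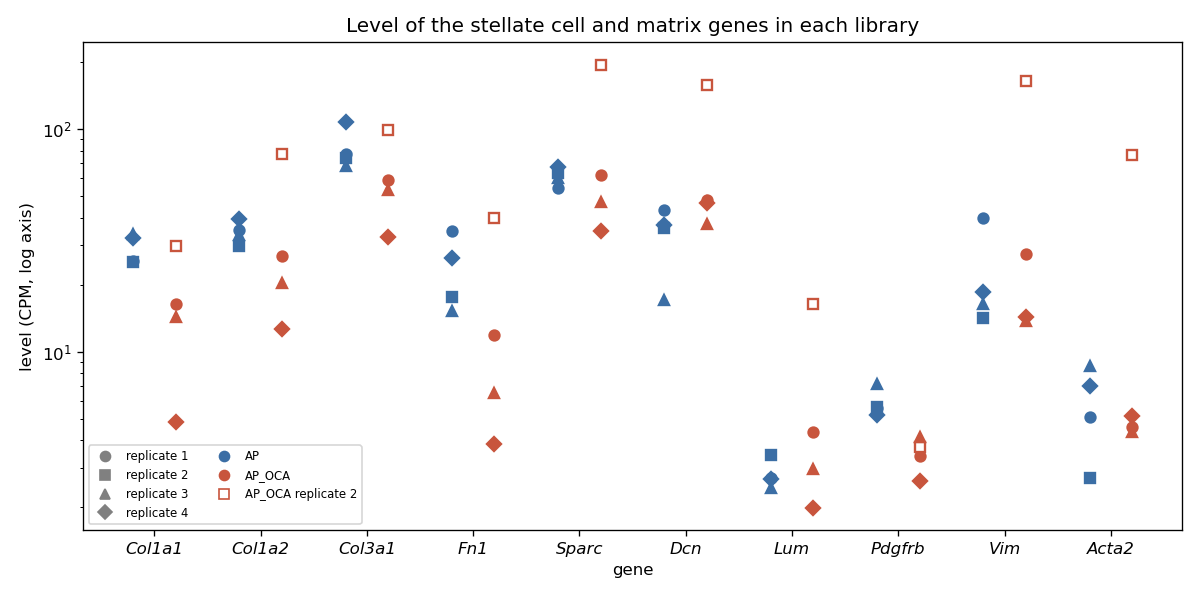
Level in CPM (log axis) of each gene in each library; blue symbols are AP, red are AP_OCA, the symbol shape gives the replicate number and the open square is AP_OCA replicate 2. For Col1a1, Col1a2, Col3a1 and Fn1 the 3 filled AP_OCA symbols lie below every AP symbol while the open square does not; for Pdgfrb all 4 AP_OCA symbols lie below.

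Among the fibrillar collagens, Col1a1, which encodes the α1 chain of collagen I, stood at 25.6, 25.2, 33.7 and 32.3 CPM in AP replicates 1 to 4 respectively. It stood at 16.3, 14.3 and 4.82 CPM in AP_OCA replicates 1, 3 and 4, and at 29.7 CPM in AP_OCA replicate 2. Without that library the groups did not overlap, and AP_OCA replicate 4 was far the lowest. The log2 fold change was -1.38 ± 0.32 (SE, limma adjusted p = 0.0488), and -1.02 ± 0.44 with all 8 libraries (adjusted p = 0.305). Only 0.404% of tested genes had a lower log2 fold change over the 7 libraries.

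Col1a2, the α2 chain that joins 2 α1 chains in the collagen I molecule, stood at 35.2, 29.7, 33.3 and 39.3 CPM in AP. The values were 26.9, 20.4 and 12.6 CPM in AP_OCA replicates 1, 3 and 4, all below AP, and 77.0 CPM in replicate 2, above every other library. Its log2 fold change over 7 libraries, -0.81 ± 0.23, did not pass (adjusted p = 0.0643 by limma), nor did -0.32 over 8 libraries. Col3a1, the single chain of collagen III, which shares fibrils with collagen I, stood at 77.4, 74.2, 68.2 and 107.5 CPM in AP. In AP_OCA replicates 1, 3 and 4 it stood at 58.7, 52.9 and 32.6 CPM and in replicate 2 at 98.7 CPM. Again the 3 libraries lay below AP and replicate 4 was the lowest, and the log2 fold change of -0.78 ± 0.22 did not pass (adjusted p = 0.0659 by limma), nor did -0.51 over 8 libraries.

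The 2 chains of collagen I did not keep one ratio across the libraries. Col1a1 over Col1a2 was 0.729, 0.850, 1.01 and 0.822 in AP and 0.608, 0.701 and 0.382 in AP_OCA replicates 1, 3 and 4. AP_OCA replicate 2 gave 0.385, so on this ratio all 4 AP_OCA libraries lay below all 4 AP libraries. Col1a2 over Col3a1 showed no such separation, at 0.365 to 0.488 in AP and 0.386 to 0.457 in the 3 AP_OCA libraries, and AP_OCA replicate 2 gave 0.780, the highest of all 8. Col1a1 over Col3a1 was 0.331, 0.340, 0.495 and 0.300 in AP and 0.278, 0.271 and 0.148 in the 3 AP_OCA libraries, all lower, but 0.300 in AP_OCA replicate 2, where the groups overlapped. These ratios were looked at after the values were seen and are given as a description. A ratio shows unequal change and not which gene moved.

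Among the matrix glycoproteins, fibronectin, which links cells to collagen through integrins, stood at 34.9, 17.5, 15.3 and 26.4 CPM in AP. It stood at 11.9, 6.55 and 3.85 CPM in AP_OCA replicates 1, 3 and 4 and at 39.7 CPM in replicate 2. The spread within AP was wide, yet all 3 libraries lay below it. The log2 fold change, -1.58 ± 0.34 (limma adjusted p = 0.0419), was the lowest of the 10, and 0.174% of tested genes lay lower still. Over all 8 libraries it was -0.99 ± 0.60 (adjusted p = 0.411). Sparc, a collagen-binding protein that guides fibril assembly, stood at 54.2, 63.5, 60.2 and 67.4 CPM in AP against 62.1, 46.9 and 34.7 CPM in the 3 AP_OCA libraries and 194.6 CPM in AP_OCA replicate 2. The groups overlapped through AP_OCA replicate 1, and the gene did not pass (-0.38 ± 0.20, limma adjusted p = 0.238; 0.12 over 8 libraries).

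Dcn and Lum, the proteoglycans among these genes, did not follow the collagens. Proteoglycans outside the set divided. Bgn (-0.66), Prelp (-0.80) and Hspg2 (-1.325) had all 3 AP_OCA libraries below AP, while Ogn (0.24) and Vcan (-0.06) overlapped (named after their values were seen). Dcn stood at 43.4, 36.1, 17.1 and 37.2 CPM in AP, replicate 3 being well below the rest. It stood at 48.1, 37.6 and 46.5 CPM in AP_OCA replicates 1, 3 and 4 and at 157.9 CPM in replicate 2. The log2 fold change of 0.46 ± 0.27 did not pass (adjusted p = 0.298 by limma), nor did 0.91 over 8 libraries. AP_OCA replicate 4, which had the lowest values of Col1a1, Col1a2, Col3a1 and Fn1, was second highest of the 7 for Dcn. Lum stood between 2.43 and 3.45 CPM in AP, at 4.35, 2.98 and 1.99 CPM in the 3 AP_OCA libraries and at 16.4 CPM in AP_OCA replicate 2, and its groups overlapped (0.07 ± 0.26, adjusted p = 0.890; 0.60 over 8 libraries).

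Set against Dcn within each library, Col1a1 had a ratio of 0.590, 0.699, 1.97 and 0.868 in AP and of 0.339, 0.381 and 0.103 in AP_OCA replicates 1, 3 and 4. The ratio in AP_OCA replicate 2 was 0.188, so the groups did not overlap with that library included. Fn1 over Dcn likewise ran from 0.486 to 0.893 in AP and was 0.247, 0.252, 0.174 and 0.0828 in AP_OCA replicates 1 to 4. Ratios to Dcn of Col1a2, Col3a1 and Pdgfrb also separated all 8 libraries by group, whereas those of Sparc, Lum, Vim and Acta2 overlapped. The choice of Dcn as the reference was made after its values were seen, and no test was run on these ratios. Dcn itself had a positive log2 fold change (0.46 over 7 libraries and 0.91 over 8), which on average lowers ratios to it in AP_OCA. In AP_OCA replicate 2 it stood at 157.9 CPM, above every other library. The share of all genes whose ratio to Dcn separates the groups was not computed. The separation is therefore not shown to be particular to the genes named.

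**Figure D2:**
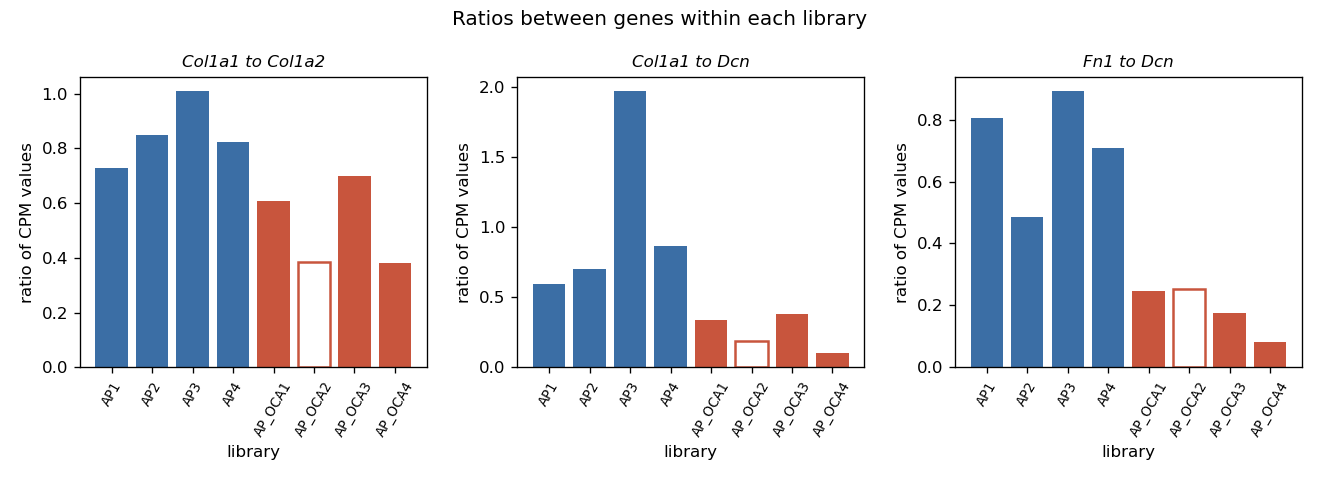
Ratio of CPM values between pairs of genes in each library; blue bars are AP, red bars AP_OCA and the open bar AP_OCA replicate 2, and each axis starts at 0. All 4 AP_OCA bars, between 0.382 and 0.701 for Col1a1 to Col1a2, are lower than all 4 AP bars in each of the 3 panels.

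The receptor and cytoskeletal genes divided. Pdgfrb, the platelet-derived growth factor receptor that drives stellate cell growth and migration, stood at 5.58, 5.63, 7.12 and 5.20 CPM in AP and at 3.39, 3.73, 4.14 and 2.63 CPM in AP_OCA replicates 1 to 4. It was the single one of the 10 with all 4 AP_OCA libraries below AP, a separation seen in 8.57% of all genes over 8 libraries. It passed neither over 7 libraries (-0.66 ± 0.23, limma adjusted p = 0.106) nor over 8 (-0.63 ± 0.22, adjusted p = 0.263). Vim encodes vimentin, the intermediate filament of mesenchymal cells, and stood at 39.8, 14.1, 16.4 and 18.6 CPM in AP. Its values of 27.5, 13.8 and 14.4 CPM in the 3 AP_OCA libraries overlapped with AP (-0.20 ± 0.34, adjusted p = 0.742), and over 8 libraries the log2 fold change was 0.58. Acta2 encodes the smooth muscle actin that marks activated stellate cells and vessel walls. It ranged from 2.70 to 8.64 CPM in AP and from 4.36 to 5.16 CPM in the 3 AP_OCA libraries, and the groups overlapped (-0.18 ± 0.30, adjusted p = 0.733); over 8 libraries it was 0.76.

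AP_OCA replicate 2 stood above the other libraries for some of these genes and not for others. Acta2 stood at 76.5 CPM, 8.86 times the highest other library, Vim at 164.2 CPM (4.12 times), Lum 3.78 times, Dcn 3.28 times and Sparc 2.89 times. Col1a1, Col3a1 and Pdgfrb lay below the highest other library, Fn1 stood at 1.14 times that library and Col1a2 at 1.96 times. Of 97 other matrix genes tested, 14 exceeded the highest of the remaining 7 libraries by over 2-fold and 16 fell short of the lowest by over 2-fold. Adamts5 (6.06 CPM against at most 1.52) and Itgb3 (7.89 CPM against at most 1.3) are among the 14. Both reached the filter on the mean only through AP_OCA replicate 2 itself, so they lend that count no weight. The same shares over all tested genes were not computed, so these counts are not shown to be particular to matrix genes. Above were tenascin C (Tnc, 41.3 CPM against at most 2.55), periostin (Postn, 15.1 against at most 2.77), the membrane collagenase Mmp14 (51.96 against at most 15.4) and Tgfb1 (44.3 against at most 12.5). Below were, among others, thrombospondin 1 (Thbs1, 25.1 CPM against at least 67.3), fibulin 2 (Fbln2, 1.78 against at least 4.71), the collagen receptor Ddr1 (3.95 CPM against at least 24.3), the proteoglycan Sdc1 (4.39 against at least 46.0) and the integrin subunit Itga3 (2.09 against at least 20.9). These genes were named after their values were seen.

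Beyond the 10 genes, 7 lists of matrix genes were read from the same fit over 7 libraries, with the 10 left out. Together they held 95 tested genes, of which 12 fell, none rose and 83 did not pass; passing downwards was found in 1.59% of all genes. AP_OCA lay wholly below AP in 39 of the 95 and wholly above in none, beside 12.1% and 11.1% of all genes, and the median log2 fold change was -0.55. With all 8 libraries 0 of 97 passed limma, and the median was -0.44. Of the 97, 79 then had negative log2 fold changes, against 50.9% of all genes. AP_OCA lay wholly below AP in 30 and wholly above in 0, beside 8.57% and 6.75% of all genes. By list, the medians over 8 libraries were -1 for collagens, -0.91 for basement membrane, -0.16 for glycoproteins and proteoglycans, -0.40 for collagen processing, -0.20 for matrix turnover, -0.33 for matrix receptors and -0.39 for TGF-β and PDGF signalling. Biglycan (Bgn), at 67.4 CPM in AP_OCA replicate 2 against at most 21.97 CPM elsewhere, stood at -0.06 over 8 libraries.

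All 12 other collagens tested had negative log2 fold changes (median -1.07), and 4 of them fell. Col5a1, a regulatory chain of collagen I fibrils, fell by 1.19 ± 0.28 (SE, limma adjusted p = 0.0450), the microfibril collagen Col6a2 by 1.03 ± 0.25, and Col15a1 and Col18a1 of basement membrane zones by 1.15 ± 0.26 and 1.19 ± 0.29. The most abundant, Col4a1, which forms the network of basement membranes, stood at 115.3, 142.2, 119.0 and 152.7 CPM in AP and at 91.7, 68.2 and 27.0 CPM in AP_OCA replicates 1, 3 and 4. It did not pass (-1.23 ± 0.34, limma adjusted p = 0.0717), nor did its partner chain Col4a2 (-1.33). The lowest value again lay in AP_OCA replicate 4.

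The basement membrane list, which shares its collagens with the one above, had 13 of 13 tested genes with negative log2 fold changes (median -0.94), of which 3 fell. Perlecan (Hspg2), its large heparan sulfate proteoglycan, fell from 38.2 ± 5.49 CPM (SD, n = 4) to 15.7 ± 7.54 CPM (n = 3). The laminin chain Lamb2 fell by 1.12 ± 0.27 on the log2 scale, and Col18a1, given above, belongs to this list too. Lama1 was listed at 0 in all 7 libraries. Of 16 other glycoproteins and proteoglycans 2 fell, fibrillin 1 (Fbn1, by 0.97 ± 0.24) and fibulin 2 (Fbln2, by 0.85 ± 0.21), and the median was -0.56. The most abundant of these, Thbs1 (-0.83) and biglycan (Bgn, -0.66), did not pass, and Fbln5 stood at 0.31 and Mfap5 at 0.16 (both named after their values were seen).

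Of 15 collagen processing genes 1 fell, and the median was -0.38. That gene was Serpinh1, which encodes the collagen chaperone HSP47. It stood at 50.4, 58.5, 62.2 and 53.3 CPM in AP and at 30.6, 30.9 and 26.0 CPM in AP_OCA replicates 1, 3 and 4, and AP_OCA replicate 2 at 49.1 CPM also lay below AP. The 3 libraries were close together, and Serpinh1 fell by 0.92 ± 0.17 (limma adjusted p = 0.0267). The lysine hydroxylase Plod3 (-0.38) and the prolyl isomerase Ppib (0.03) did not pass.

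Of 12 matrix turnover genes 1 fell, the aggrecanase Adamts4, from 11.7 ± 2.71 CPM (SD, n = 4) to 3.35 ± 1.68 CPM (n = 3). The metalloproteinase inhibitor Timp1 (0.37) did not pass, and the list median was -0.64. Of 13 matrix receptors 1 fell, the fibronectin receptor subunit Itga5, by 0.97 ± 0.20 (limma adjusted p = 0.0302). The median was -0.18, and Ddr1 (-1.25) and Itga6 (0.10) did not pass. Of 17 genes of TGF-β and PDGF signalling, 1 fell, the matricellular gene Cyr61, by 1.21 ± 0.26, and the median was -0.36. Tgfbr2 (-0.36) and Smad3 (0.03), the most abundant, did not pass.

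Markers of other cell types were read beside these genes. None of 8 other stellate and fibroblast markers passed (median -0.43). Of the 8, 6 had negative log2 fold changes. AP_OCA lay wholly below AP in 3 and wholly above in 0, beside 12.1% and 11.1% of all genes. They summed to 88.2 to 156.7 CPM in AP and 94.1 to 103.3 CPM in AP_OCA replicates 1, 3 and 4, with Lrat listed at 0 in all 7. Its most abundant members were Nes (-0.21) and Dpt (-0.36). Nes made up most of the sum, with means of 90.8 CPM in AP and 74.6 CPM in the 3 AP_OCA libraries. In the next list 0 of 7 smooth muscle and pericyte markers passed (median -0.58), among them Mcam (-0.58) and Rgs5 (0.07). The latter list summed to 24.6 to 31.7 CPM in AP and, without overlap, to 19.0 to 21.6 CPM in AP_OCA replicates 1, 3 and 4, but to 85.9 CPM in AP_OCA replicate 2, above every other library. The sum of the endothelial markers also separated these 7 libraries. It was 146.4 to 192.4 CPM in AP and 133.5, 104.3 and 63.8 CPM in AP_OCA replicates 1, 3 and 4, and 338.0 CPM in AP_OCA replicate 2, above every AP library. Of 14 tested, 12 had negative log2 fold changes (median -0.82), and Eng fell by 0.97 ± 0.21 while Plvap (-0.98) did not pass. AP_OCA lay wholly below AP in 2 of the 14 and wholly above in 1, beside the same 12.1% and 11.1% of all genes. The gene above was Egfl7 (0.53), and Emcn (0.59) was positive as well, neither passing. Duct markers went the other way, at 143.6 to 222.4 CPM in AP and 268.3 to 316.0 CPM in AP_OCA replicates 1, 3 and 4 but 22.6 CPM in AP_OCA replicate 2, with 0 of 5 passing (median 0.52), the most abundant being Spp1 (1.32) and Krt19 (0.61). The part of the vessel and duct cells in the matrix result was not tested.

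Other marker lists overlapped between the groups in their sums over the 7 libraries, apart from the acinar list, and the AP_OCA ranges that follow are of replicates 1, 3 and 4. Macrophage and myeloid markers summed to 106.2 to 203.3 CPM in AP and 117.5 to 141.2 CPM in AP_OCA (0 of 11 passed, median -0.26, Lyz2 -0.93 and Cd14 0.14). For lymphocyte markers, with Cd3e and Cd2 listed at 0, the sums were 7.51 to 43.7 and 4.15 to 8.30 CPM (0 of 4 passed, median -0.61, Igkc -0.60 and Ighm -1.51). Mesothelial and adipocyte markers had 13.3 to 34.6 and 28.2 to 87.2 CPM (Cfd at 0.64 and Fabp4 at 1.15, neither passing, median 0.90). Islet markers had 508 to 2153 and 1239 to 1729 CPM (0 of 8 passed, median 0.19, Ins1 0.09 and Ins2 0.30), and Schwann cell markers 19.1 to 24.2 and 18.8 to 52.97 CPM (0 of 2 passed, median 0.72). The 11 acinar markers summed to 413700 to 421700 CPM in AP and 366000 to 412300 CPM in AP_OCA, and none passed (median 0.00). That median is the value of Ctrb1, which held the highest value shared by all libraries, 116500 CPM. Its change was thus fixed at 0 by the common scale, and the median cannot show whether acinar genes changed. Of the 11, 6 had negative log2 fold changes. Cel (-0.61, limma adjusted p = 0.0513) lay wholly below AP (named after its values were seen).

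The change of the 10 genes varied with their GC content. Over the 7 libraries, Spearman's rho between transcript GC content and log2 fold change was -0.881 across the 10 genes and -0.522 across 93 other matrix genes, which share libraries and are not independent. Genes at large showed a slope of the same sign: split into 5 bins by GC content, those of the lowest bin (31.0 to 44.3%) had a median of 0.27 on the log2 scale, and those of the highest bin (55.7 to 78.3%) had -0.23. Col1a1, at the 93.2 percentile of GC content, lay at -1.38, and Dcn, at the 1.13 percentile, at 0.46. AP replicate 3 had the strongest tie of its values to GC content (rho 0.641 across genes, against -0.361 to 0.101 in the other 6), along with the highest Col1a1 and the lowest Dcn of the 4 AP libraries. With AP replicate 3 left out, rho across the 10 genes was -0.855. Ties to transcript length differed too, with rho of 0.369, 0.239, -0.133 and 0.379 in AP replicates 1 to 4. In AP_OCA replicates 1, 3 and 4 that rho was -0.133, -0.171 and -0.223. By length, Fn1 lay at the 95.2 percentile, Col1a1 at 85.1, Dcn at 73.4 and Acta2, the shortest of the 10, at 23.3. Length and GC content were removed together below, and their separate parts were not tested.

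**Figure D3:**
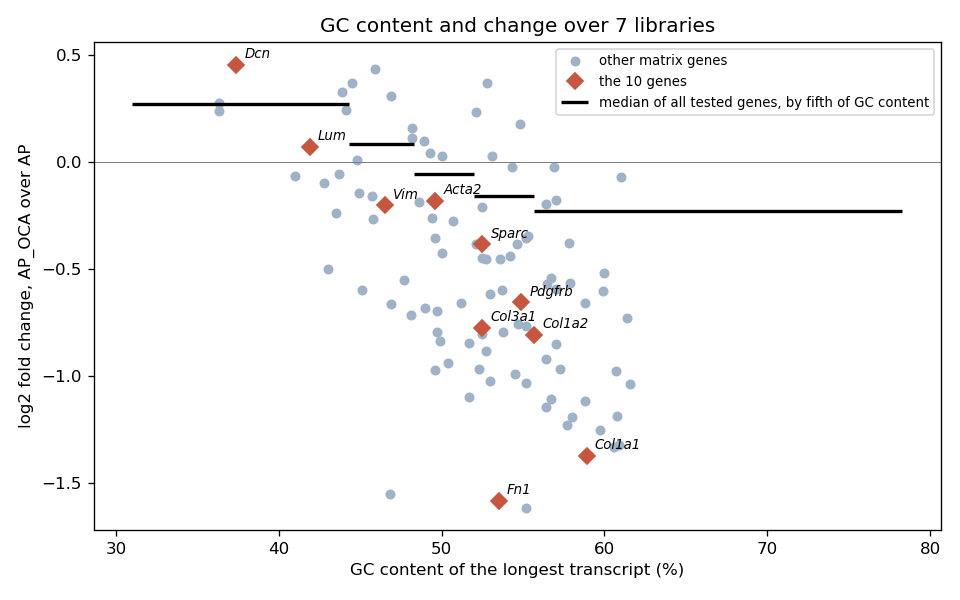
GC content of the longest transcript (%) against the log2 fold change of AP_OCA over AP without AP_OCA replicate 2; red diamonds are the 10 genes, blue points the other matrix genes and black bars the median of all tested genes in each of 5 bins of GC content. The 10 genes run from Dcn (37.4% GC, 0.46) to Col1a1 (58.9%, -1.38) and Fn1 (53.5%, -1.58), and the black bars fall from 0.27 to -0.23.

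With each library's trend on transcript length and GC content removed, the log2 fold changes of Col1a1, Col1a2, Col3a1, Fn1, Sparc, Pdgfrb and Dcn moved towards 0, and those of Vim and Acta2 away from it, while that of Lum turned negative. Fn1 stood at -1.23 ± 0.30 (SE, limma adjusted p = 0.0755) and Col1a1 at -0.90 ± 0.23 (adjusted p = 0.0741), neither passing. Col1a2 stood at -0.41, Col3a1 at -0.47, Sparc at -0.33, Pdgfrb at -0.27, Vim at -0.27 (SE 0.35), Acta2 at -0.29 (SE 0.28), Lum at -0.28 (SE 0.26) and Dcn at 0.14. Thus 9 of the 10 were negative, none passed, and the spread between the collagens and the proteoglycans Dcn and Lum was smaller. The share of all genes with a negative change was not computed for this fit, in which the median over all genes was 0.01. Among the other matrix genes 2 fell after this step, Serpinh1 (-0.75) and Adamts4 (-1.26), where 0.692% of all genes fell. Cyr61 had no match in the annotation used for length and GC content and was not in that fit. The median over all other matrix genes was then -0.26, from -0.55. By list it was -0.71 for collagens, -0.65 for basement membrane, -0.36 for glycoproteins and proteoglycans, -0.40 for matrix turnover, -0.12 for collagen processing, -0.08 for matrix receptors and -0.15 for TGF-β and PDGF signalling.

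**Figure D4:**
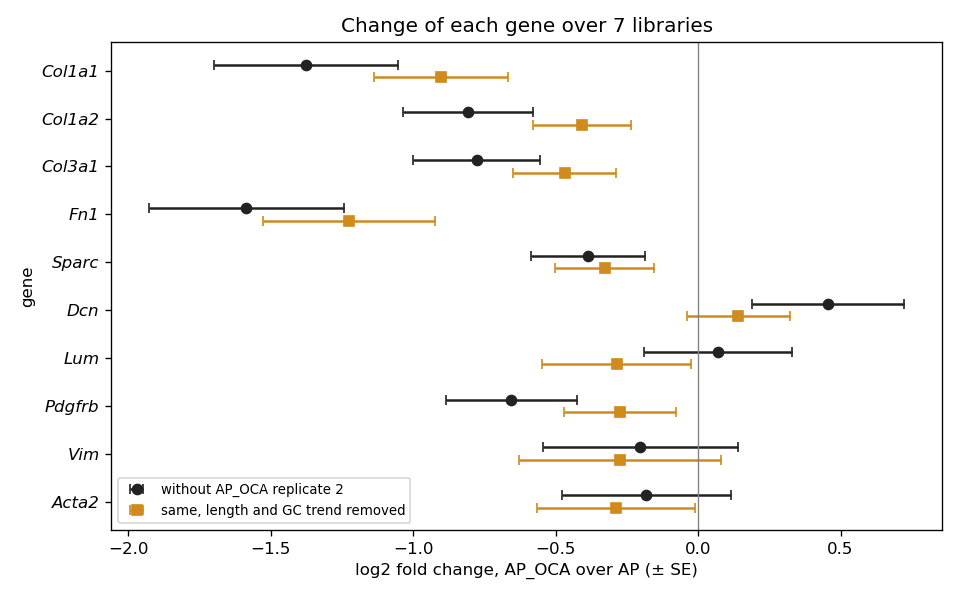
Log2 fold change of AP_OCA over AP for each gene without AP_OCA replicate 2 (black circles) and after removal of each library's trend on transcript length and GC content (orange squares); bars are standard errors. Fn1 and Col1a1 are the lowest in both, at -1.58 and -1.38 before and -1.23 and -0.90 after, while Dcn moves from 0.46 to 0.14.

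The 2 calls among the 10 genes depended on single libraries. Col1a1 passed in 2 of 7 fits that left out 1 more library, at -1.67 without AP_OCA replicate 1 and -0.88 without AP_OCA replicate 4, and its adjusted p reached 0.126 without AP replicate 4. Fn1 passed in 1 of the 7, without AP_OCA replicate 1 (-1.95), and did not pass without AP replicate 1 (adjusted p = 0.109), AP replicate 2 (0.0708), AP replicate 3 (0.0605), AP replicate 4 (0.117), AP_OCA replicate 3 (0.0845) or AP_OCA replicate 4 (0.105). Col1a1 lost its call without AP replicates 1 (0.119), 2 (0.0894), 3 (0.0940) and 4 and without AP_OCA replicate 3 (0.0717). Both kept their direction in all 7.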

How the data were processed

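The authors deposited 1 table of log2 values for 54427 genes in 8 libraries; per the labels, libraries came from total RNA with a SMARTER kit, and per the submitters' processing notes the build was mm10. The aligner, counter and annotation are not given in the sources used here. The lowest deposited log2 value equals the log2 of 0.01 and all libraries share their highest value, so the values were read as quantile-normalised counts plus 0.01. They were taken off the log scale, freed of the offset and scaled to 1000000 per library (CPM). Testing covered genes whose mean reached 1 CPM, on log2(CPM + 1) with limma 3.58.1 (R 4.3.3; trend, robust), AP_OCA against AP, with Benjamini-Hochberg adjustment over all genes at 0.05. Fold changes are on the log2(CPM + 1) scale, which understates those of low genes. The script was tested on simulated data.

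Groups came from the sample titles. The members and lists were chosen with earlier results of these data known. Named are the 10 members, from each matrix list the 2 most abundant genes and any that passed, from each marker list the 2 most abundant, and the 5 genes most like the members; a few genes under this rule are not reported here. Lengths and GC content are of the longest GENCODE M21 transcript. Alternatives were 2 pseudocounts, 2 filters, median centring, the deposited scale, limma without trend, quality weights, the replicate block, the length and GC trend removed, and each library left out.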

Additional observations from a re-analysis of the deposited data

Results flagged for a closer look

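In 4 of 20 groups of 4 samples (each gene in AP and in AP_OCA), 1 sample lay farther from the nearest other than Dixon's 95% limit allows; chance gives about 1 in 20. All 4 were AP_OCA replicate 2 as the highest AP_OCA library: Dcn at 157.9 CPM (gap 0.912 of the range), Lum at 16.4 CPM (0.837), Vim at 164.2 CPM (0.908) and Acta2 at 76.5 CPM (0.989). That library also held 3750 CPM of lymphocyte markers and 1233 CPM of macrophage and myeloid markers, against at most 43.7 and 203.3 CPM in the other 7. Their part in the 4 values was not tested.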

How the results depend on the processing

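With all 8 libraries, limma called 0 genes and 0 of the 10, except with quality weights per library (1052 genes, 4 of the 10: Col1a1, Col1a2, Col3a1 and Fn1). Leaving out each library gave 0 to 266 genes and 0 to 2 of the 10, the higher values without AP_OCA replicate 2. Over 7 libraries the counts were 266 genes, 2 of the 10 and 12 other matrix genes. In the same order they were 156, 1 and 5 with a pseudocount of 0.1, 113, 0 and 5 on the deposited scale, 14, 0 and 0 without trend, 0, 0 and 0 with no filter, 1675, 4 and 38 with quality weights, and 124, 0 and 2 with the length and GC trend removed. Leaving out each library gave 7 to 973 genes, 0 to 4 of the 10 and 0 to 26 matrix genes, most without AP_OCA replicate 1 and 0 of both without any AP replicate or AP_OCA replicate 3; the cause was not tested. The replicate block, which in effect drops the unpaired AP replicate 2, gave 559 genes, 3 of the 10 and 19 matrix genes. Over 8 libraries, same-numbered libraries correlated in their deviations from the group means at -0.166, 0.0338, 0.116 and -0.0257 for numbers 1 to 4. AP replicate 1 correlated best with AP_OCA replicate 2. Over 7 libraries the values were -0.0553, 0.0528 and -0.0715 for numbers 1, 3 and 4. Correlations this small neither show nor exclude a shared animal or preparation, because AP_OCA replicate 2 weighs on the first set and the groups are small. Col1a1, Col3a1, Fn1, Pdgfrb and Dcn kept their sign in all alternatives, in both fits. Over 8 libraries Sparc (0.12), Vim (0.58) and Acta2 (0.76) turned to -0.27, -0.28 and -0.071 with quality weights and to -0.38, -0.20 and -0.18 without AP_OCA replicate 2; leaving out each library gave up to 0.43, 0.96 and 1.10. Over 7 libraries Lum turned to -0.28 with the length and GC trend removed, and to -0.14 without AP_OCA replicate 1, Vim to 0.11 without AP replicate 1 (lowest with a library left out, -0.51) and Acta2 to 0.011 without AP replicate 3. Over 8 libraries Col1a2 was at 0.16 with that trend removed and at 0.032 without AP_OCA replicate 4. With a minimum mean of 5 CPM, Lum and Pdgfrb have no value in either fit. None of these values with a changed sign passed. The number of reads is unknown, so what depth limits could not be computed.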

Other observations

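The 5 genes outside the 10 whose profiles over the 7 libraries, centred on their mean, lay closest to the mean profile of the 10 were Gmip, Fgfr1, Ppp2r1b, Zc3h18 and Dnmt1, with root mean square differences of 0.0472 to 0.0877 on the log2 scale. The 10 genes themselves differed from that mean profile by 0.162 (Col1a2) to 0.636 (Dcn). Fgfr1, a fibroblast growth factor receptor, stood at 47.8, 39.9, 42.5 and 48.0 CPM in AP and at 35.5, 31.9 and 23.2 CPM in AP_OCA replicates 1, 3 and 4. None of the 5 passed limma (adjusted p from 0.0913 to 0.231). With AP_OCA replicate 2, which was not used for the likeness, they parted: Gmip stood there at 50.5 CPM and Dnmt1 at 14.3 CPM, above every other library, and Fgfr1 at 6.06 CPM, Ppp2r1b at 5.47 CPM below every other.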
